A study of Rattus norvegicus with 15 samples.

Results

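The bone morphogenetic protein (BMP) ligands and their antagonists were examined in molar tooth germs of the rat. The group holds 10 genes chosen by their symbols: the ligands Bmp2, Bmp3, Bmp4, Bmp5, Bmp6 and Bmp7 and the antagonists Nog, Fst, Bambi and Grem1. Of these, 8 were found among the 14185 genes of the table of estimated counts, and all 8 passed the filter on low counts in every comparison. Bambi and Grem1 were not analysed here, because no pair of symbol and mouse identifier was used for them. RNA was sequenced from whole first molar germs of wild type DA/HanRj rat embryos that had received no treatment, with 1 tooth per library. The libraries fall into 3 groups of 5, which are E15 (labelled E15.5), E17 (labelled E17.5) and E18 (labelled E18). E15 was taken by the study as bud stage and E17 as cap stage. The labels of E15 and E17 name the tooth only as molar 1, whereas those of E18 name the lower first molar. Each stage carries its own code in the sample titles, so that stage cannot be told apart from litter or preparation. E17 replicates 1 and 2 are the left and the right tooth of the same embryo.

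BMPs are secreted signals of the transforming growth factor beta superfamily. They bind pairs of type I and type II receptor kinases, which phosphorylate Smad1, Smad5 and Smad8, and these enter the nucleus with Smad4. Noggin, the product of Nog, binds BMPs outside the cell and blocks receptor binding, whereas follistatin, the product of Fst, binds activins with high affinity and some BMPs less tightly. In the tooth BMPs are known as signals between epithelium and mesenchyme. Bmp4 is known for its part in the exchange that carries the bud to the cap, with Msx1 as its partner in the mesenchyme. Bmp2, Bmp4 and Bmp7 are also known from the enamel knot, the signalling centre of the cap stage epithelium.

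Library totals were between 10993502 and 27571541 counts. The members were well above the limit of detection, with the lowest single value being 23 counts of Bmp5 in E18 replicate 3. A count of 0 would have allowed up to 3 counts, which is 0.109 to 0.273 CPM (counts scaled to a library of fixed size), and covers counting error only. The mean correlation across genes with the other libraries of a stage was 0.873 for E18 replicate 3 and 0.950 to 0.956 for the other E18 libraries. It was 0.944 for E15 replicate 3 and 0.965 to 0.975 for the other E15 libraries. Values below are normalized counts, that is, counts divided by a size factor of the library, and are not corrected for gene length, so that levels are compared between stages and not between genes.

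Sequence before the start of the gene was at hand for 7 of the 10 symbols in RefSeq (build GRCr8), among them Bmp3, Bambi and Grem1. The 250 bases before the start are shown for 4 members, Bmp6 and Nog, whose counts varied together among teeth of a stage, and Bmp4 and Bmp5, whose counts varied in opposite directions. All are written 5′ to 3′ in the direction of the gene. Capitals mark matches, on either strand, to 7 short motifs. The core promoter motifs searched were TATAAA, the CCAAT box and the GC box, spelled GGGCGG. The E-box was spelled CACGTG. A short element known to bind BMP Smads was spelled GGCGCC, a homeodomain site CAATTA and the site of Lef1 CTTTGAT. The windows are chr17:26675262-26675511 for Bmp6, chr10:74627502-74627751 for Nog and chr15:22101934-22102183 for Bmp4, each on the minus strand, and chr8:85397379-85397628 for Bmp5 on the plus strand.
Bmp6: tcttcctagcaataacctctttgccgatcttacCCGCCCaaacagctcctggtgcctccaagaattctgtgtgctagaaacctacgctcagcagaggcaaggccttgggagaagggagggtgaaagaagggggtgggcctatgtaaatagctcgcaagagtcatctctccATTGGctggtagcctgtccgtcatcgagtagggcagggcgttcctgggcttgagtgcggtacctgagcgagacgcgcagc
Nog: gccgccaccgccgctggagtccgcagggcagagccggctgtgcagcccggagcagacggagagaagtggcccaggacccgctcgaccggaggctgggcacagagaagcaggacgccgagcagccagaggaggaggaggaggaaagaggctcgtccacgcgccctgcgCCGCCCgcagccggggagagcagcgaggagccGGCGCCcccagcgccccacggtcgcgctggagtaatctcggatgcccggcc
Bmp4: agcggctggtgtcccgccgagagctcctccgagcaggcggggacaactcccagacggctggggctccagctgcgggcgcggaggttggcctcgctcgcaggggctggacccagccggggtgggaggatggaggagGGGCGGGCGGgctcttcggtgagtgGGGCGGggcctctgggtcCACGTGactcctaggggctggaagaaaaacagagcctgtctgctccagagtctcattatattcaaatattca
Bmp5: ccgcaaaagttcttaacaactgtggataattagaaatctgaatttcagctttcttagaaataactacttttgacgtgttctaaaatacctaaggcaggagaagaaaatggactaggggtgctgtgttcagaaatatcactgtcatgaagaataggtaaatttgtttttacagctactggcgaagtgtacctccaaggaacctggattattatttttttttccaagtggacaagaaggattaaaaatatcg

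The windows of Bmp6 and Nog had a GC box each on the opposite strand, beginning 217 and 83 bases before the start. Only Bmp6 among these 4 had a CCAAT box (80 bases before the start, opposite strand), and only Nog had GGCGCC (51 bases before the start). Of the windows not shown, those of Bambi and Grem1 also held GGCGCC, that of Grem1 also a CCAAT box, and that of Bmp3 neither. Bmp4 had 3 GC boxes, of which those beginning 115 and 111 bases before the start overlap, and an E-box 72 bases before it. None of the 7 motifs was found in the window of Bmp5, which held 35.2% G and C against 56.4% in Bmp6, 66.4% in Bmp4 and 74% in Nog. The median over all 33469 windows of this length was 51.2%. Of these windows 30.5% held a GC box, 34% a CCAAT box, 5.59% an E-box, 8.69% GGCGCC, 12.9% TATAAA, 7.31% CAATTA and 3.15% CTTTGAT. A match describes letters only and marks no bound site. Whether transcription begins at these RefSeq starts in the tooth was not tested.

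Between E15 and E17, the bud and the cap stage, 3 of the 8 members changed. Bmp7 and Fst rose and Bmp2 fell, while Bmp3, Bmp4, Bmp5, Bmp6 and Nog did not pass the test. The test was the quasi-likelihood F test of edgeR over 12627 genes, with a Benjamini-Hochberg adjusted p under 0.05. Of all genes tested, 11.3% were higher and 7.02% were lower at E17, against 2 and 1 of the 8 members. The normalized counts of the 2 stages did not overlap for 16.3% of all genes, and for 3 members, which were the same 3.

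Bmp2, a ligand known from the enamel knot, had 405, 486, 500, 357 and 378 normalized counts in the 5 teeth of E15. At E17 it had 278, 317, 287, 333 and 329, and at E18 222, 174, 137, 222 and 161. The 3 stages were fully separate, since every E17 tooth lay below every E15 tooth and every E18 tooth below every E17 tooth. Bmp2 was the only member with this pattern. Of the 12781 genes whose mean normalized count reached 10, 0.657% fell and 1.79% rose in this way. From E15 to E17 the mean went from 425 ± 64.5 to 309 ± 25.1 (SD, n = 5 per stage), with a log2 fold change of −0.45 ± 0.11 (SE, edgeR adjusted p = 0.0115).

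Bmp7, another ligand of the enamel knot and the surrounding epithelium, had 643, 493, 612, 642 and 613 normalized counts at E15. At E17 it had 903, 908, 1026, 905 and 954 at E17. Each E17 tooth exceeded each E15 tooth, and the spread at E17 was small (CV 5.65%). The mean rose from 601 ± 62.1 to 939 ± 53.0 (SD, n = 5 per stage), a log2 fold change of 0.65 ± 0.08 (SE, edgeR adjusted p = 8.83e-05). At E18 the teeth had 823, 1134, 1309, 1082 and 881, a wider range (CV 18.8%) that held the E17 values.

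Fst, an antagonist of activins and some BMPs, had 492, 466, 449, 366 and 536 normalized counts at E15. At E17 it had 696, 594, 661, 618 and 569, and at E18 672, 725, 772, 631 and 795. The E15 teeth lay below all later teeth, and E17 and E18 overlapped. From E15 to E17 the mean rose from 462 ± 62.6 to 628 ± 51.2 (SD, n = 5 per stage), a log2 fold change of 0.45 ± 0.10 (SE, edgeR adjusted p = 0.00588). For Bmp2, Bmp7 and Fst the exact two-sided permutation test of log2 CPM gave p = 0.00794, the smallest possible with 5 teeth against 5. This test treats the 2 E17 teeth of the same embryo as independent.

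**Figure D1:**
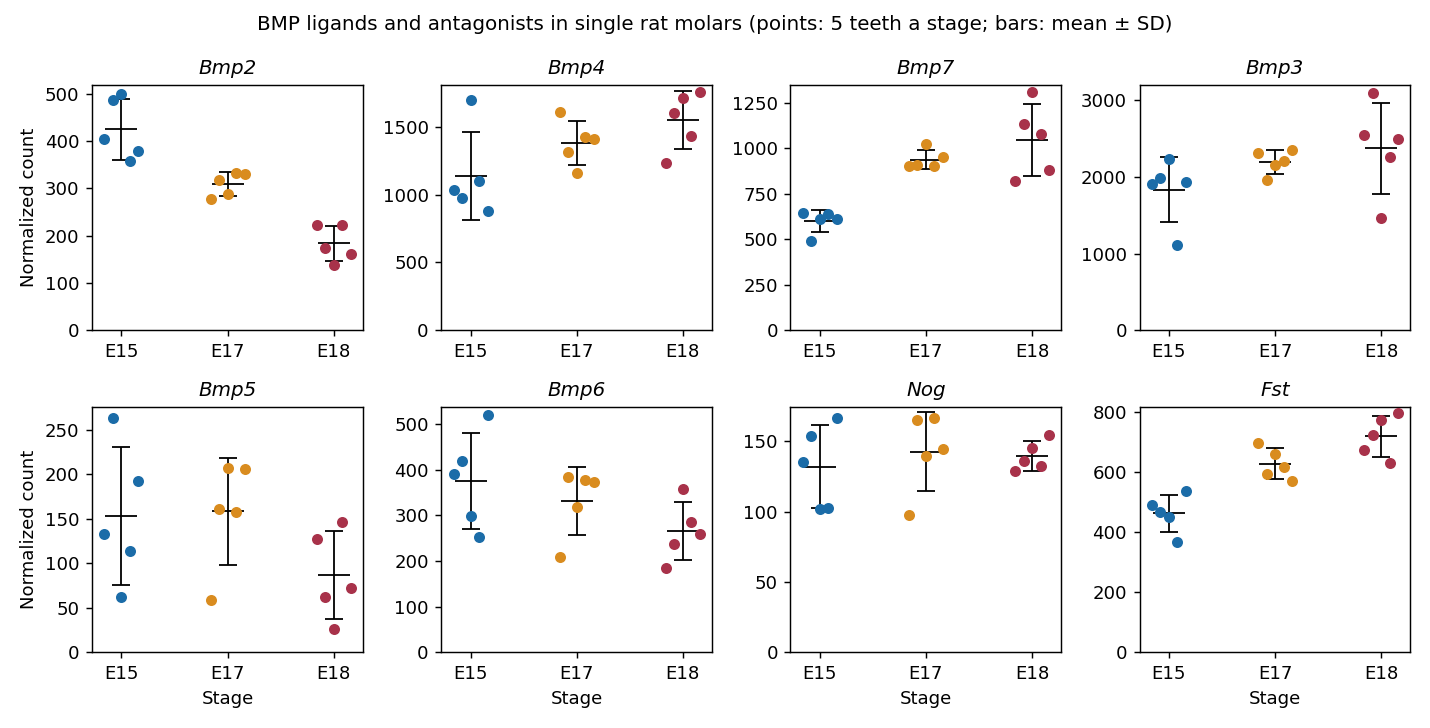
Normalized counts (y axes, linear from 0) of the 8 members in each tooth at E15, E17 and E18 (x axes); points are teeth in replicate order, and bars give the mean ± SD of 5 teeth. Bmp2 steps down through 3 separate ranges (357 to 500, 278 to 333, 137 to 222), Bmp7 and Fst step up after E15, and the stages overlap in Bmp3, Bmp4, Bmp5, Bmp6 and Nog.

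Bmp4, the ligand required for passage from bud to cap, had 1037, 976, 1697, 1100 and 879 normalized counts at E15. At E17 it had 1607, 1315, 1162, 1427 and 1408 at E17. Replicate 3 of E15 stood above the other 4 teeth of its stage and above all E17 teeth. The log2 fold change was 0.29 ± 0.15 (SE, edgeR adjusted p = 0.21, 95% confidence interval −0.04 to 0.62), which did not pass. Without that tooth it was 0.48 (adjusted p = 0.00115), and the 4 remaining E15 teeth lay below all 5 E17 teeth. Over all 17 alternatives the change lay between 0.21 and 0.48.

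Bmp3, which unlike the other ligands is known to act mainly against BMP signalling, had 1912, 1982, 2236, 1106 and 1933 normalized counts at E15. At E17 it had 2311, 1959, 2156, 2211 and 2346 at E17. The groups overlapped, and replicate 4 of E15 lay far below the others. The log2 fold change of 0.27 ± 0.14 (SE, edgeR adjusted p = 0.216, 95% confidence interval −0.04 to 0.58) did not pass.

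Bmp5 and Bmp6, related ligands of one subgroup, overlapped between all stages. Bmp5 had 133, 263, 62.3, 114 and 192 normalized counts in the E15 teeth, 59.0, 161, 207, 158 and 205 at E17 and 127, 62.5, 25.7, 146 and 72.0 at E18. Its coefficient of variation was 50.6%, 38.1% and 56.7% at the 3 stages, the widest spread of the 8 members. Its log2 fold change from E15 to E17 was 0.06 ± 0.36 (SE, edgeR adjusted p = 0.931), with a 95% confidence interval of −0.72 to 0.84. Bmp6 had 389, 418, 297, 253 and 520 normalized counts in the E15 teeth, 208, 383, 317, 377 and 372 at E17 and 185, 237, 358, 285 and 260 at E18. The means were 375, 331 and 265, all ranges overlapped, and the log2 fold change from E15 to E17 was −0.17 ± 0.20 (SE, edgeR adjusted p = 0.603).

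Nog, whose product noggin blocks BMP ligands, stayed within a narrow band of means. It had 135, 154, 102, 102 and 167 normalized counts in the E15 teeth, 97.3, 165, 140, 166 and 145 at E17 and 129, 136, 145, 133 and 155 at E18. The E18 values all lay inside the ranges of the earlier stages. The log2 fold change from E15 to E17 was 0.12 ± 0.19 (SE, edgeR adjusted p = 0.704), with a 95% confidence interval of −0.28 to 0.52.

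Between E17 and E18 the only member that changed was Bmp2. Its mean went from 309 ± 25.1 to 183 ± 37.9 normalized counts (SD, n = 5 per stage), a log2 fold change of −0.75 ± 0.14 (SE, edgeR adjusted p = 0.023). Of 12718 genes tested, 0.629% were lower and 1.91% higher at E18, and 6.78% did not overlap between these stages. Among the 8 members 1 was lower, 0 were higher, and only Bmp2 did not overlap. With both teeth of the shared E17 embryo summed, Bmp2 kept its call at an edgeR adjusted p of 0.0476. The call was lost (adjusted p = 0.055 to 0.0732) in 6 of 10 fits that left out a tooth, namely E17 replicate 2, 3, 4 or 5 or E18 replicate 2 or 5, although the change itself stayed between −0.83 and −0.66 in all 17 alternatives.

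The other 7 members had confidence intervals that held 0 in this comparison. Fst was closest to the threshold, with a log2 fold change of 0.20 ± 0.09 (SE, edgeR adjusted p = 0.324). Bmp7 (0.15 ± 0.12), Bmp4 (0.16 ± 0.12) and Bmp3 (0.11 ± 0.16) had small positive values, and Nog had −0.03 ± 0.15. Bmp5 (−0.85 ± 0.43) and Bmp6 (−0.33 ± 0.20) had negative values within their spread between teeth (SE, edgeR adjusted p = 0.375 and 0.476).

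Over the whole span from E15 to E18, Bmp2 had a log2 fold change of −1.20 ± 0.16 (SE, edgeR adjusted p = 0.00036), a 2.3-fold fall. Bmp7 rose by 0.81 ± 0.14 (adjusted p = 0.00152) to 1046 ± 197 normalized counts, and Fst by 0.65 ± 0.12 (adjusted p = 0.0021) to 719 ± 67.9 (SD, n = 5). These 3 of 8 members compare with 14.2% of 12661 genes higher and 6.73% lower at E18. The stages did not overlap for 23% of all genes and for the same 3 members. E15 and E18 teeth enter the other comparisons as well, so that the 3 comparisons are not independent.

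Calls for Bmp3, Bmp4 and Bmp6 over this span depended on single teeth, and that of Bmp4 also on the test and the libraries fitted. Bmp4 had 1237, 1605, 1712, 1432 and 1758 normalized counts at E18, and its log2 fold change against E15 was 0.45 ± 0.17 (SE, edgeR adjusted p = 0.0879). Without E15 replicate 3 it was 0.64 (adjusted p = 0.00412), and with all 15 libraries in the fit 0.45 (adjusted p = 0.0408). The exact permutation test of log2 CPM gave p = 0.0397 for Bmp4, without adjustment over genes. Bmp3 (2549, 3101, 1463, 2253 and 2489 at E18) had a log2 fold change of 0.38 ± 0.21 (adjusted p = 0.232), and Bmp6 one of −0.50 ± 0.22 (adjusted p = 0.138). Without E18 replicate 3, the tooth with the lowest Bmp3 and the highest Bmp6 of its stage, both passed, at 0.51 (adjusted p = 0.0375) and −0.63 (adjusted p = 0.0349), so that 5 members were called. With both E15 replicate 3 and E18 replicate 3 left out, 6 members were called, which were Bmp2, Bmp3, Bmp4, Bmp6, Bmp7 and Fst. Bmp5 (−0.80 ± 0.46) and Nog (0.09 ± 0.17) did not pass in this comparison in any of the 17 alternatives.

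**Figure D2:**
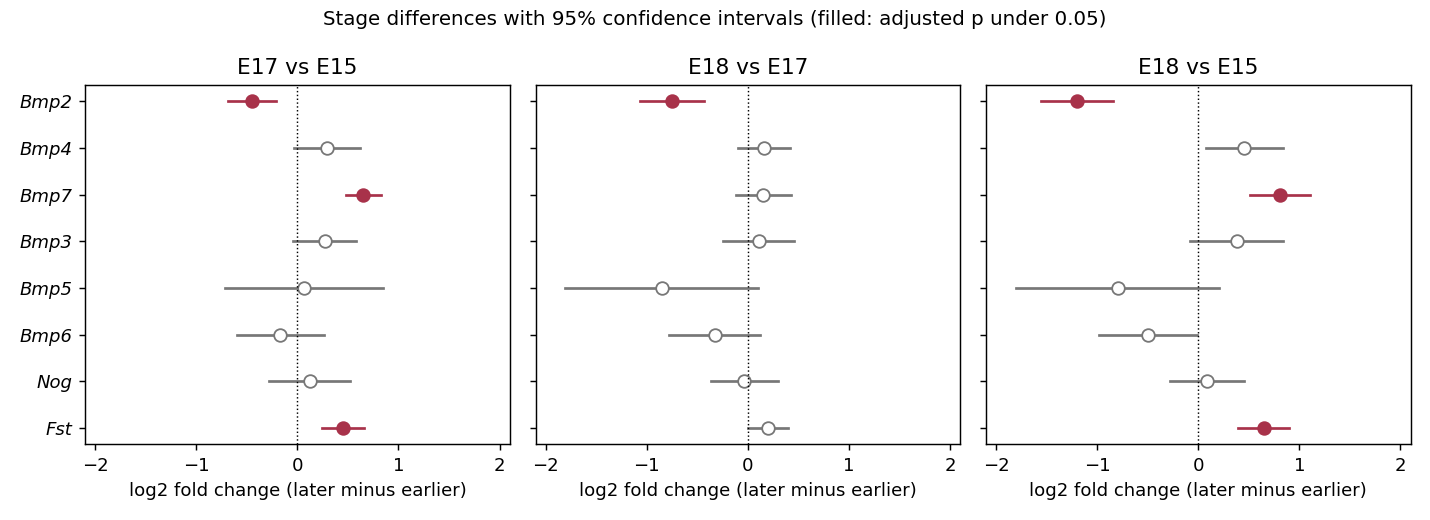
Log2 fold change (x axes, later minus earlier stage) of each member with its 95% confidence interval in the 3 comparisons; filled circles have an edgeR adjusted p under 0.05. Bmp2 lies left of 0 in each panel (−0.45, −0.75 and −1.20), Bmp7 and Fst pass only where E15 is the earlier stage, and Bmp5 has the widest intervals.

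Whether the second interval differed from the first was tested by the contrast of both steps over all 15 libraries. None of the 8 members passed (edgeR, 0.551% of 12894 genes passed), and 1 had an unadjusted p under 0.05. This was Bmp7, where the second step minus the first was −0.50 ± 0.20 on the log2 scale (edgeR adjusted p = 0.453). DESeq2's Wald test also called 0 members. For Bmp2 the steps differed by −0.29 ± 0.24 (adjusted p = 0.861), so that a larger second step was not shown. The contrast compares the sizes of the steps and not their pace, since the intervals between the labelled days differ in length. Both steps share the E17 libraries.

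The balance between members was read within each tooth as a ratio of counts, which is free of library scaling. The ratio of Bmp4 to Bmp2 had a median of 2.56 (range 2.01 to 3.39) at E15, 4.28 (4.05 to 5.79) at E17 and 9.22 (5.56 to 12.5) at E18. E15 lay below the later stages, and E17 and E18 overlapped only through E17 replicate 1. The ratio of Bmp7 to Bmp2 had medians of 1.59, 2.90 and 5.49, with ranges (1.01 to 1.80, 2.72 to 3.57 and 3.70 to 9.54) that did not overlap. The ratio of Fst to Bmp2 likewise had separate ranges, with medians of 1.03, 1.88 and 4.16. By contrast, the ratio of Bmp4 to Fst had medians of 2.11, 2.31 and 2.21, and that of Bmp7 to Fst 1.31, 1.53 and 1.57, with overlapping ranges at all stages. The ratio of Bmp4 to Nog had rising medians of 7.68, 8.57 and 11.4, and its ranges overlapped (5.28 to 16.6, 7.96 to 16.5 and 9.62 to 11.8). A ratio shows unequal change within a tooth and not which of its genes moved. The ratios over Bmp2 restate the same counts, with a denominator that fell at each step, and are no separate support. The share of all gene pairs with separate ratios was not computed.

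**Figure D3:**
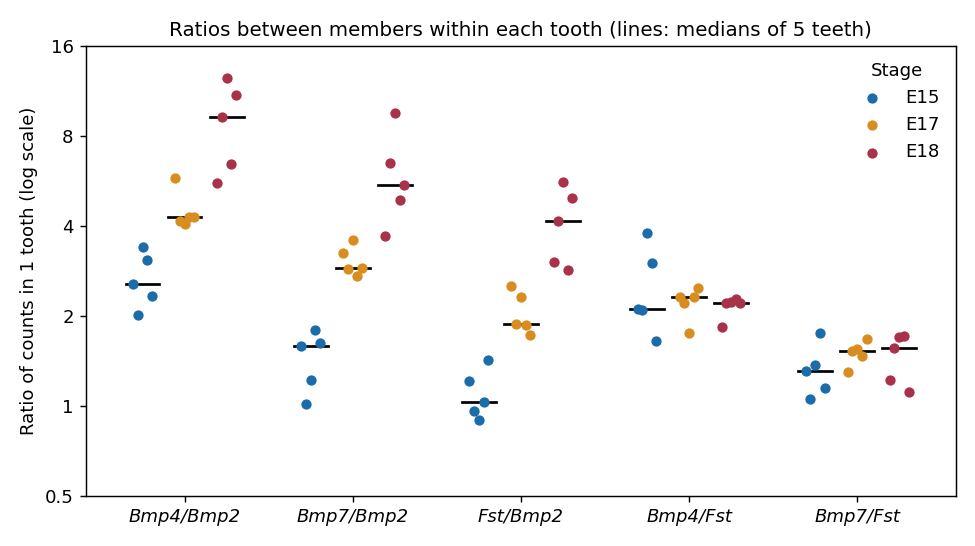
Ratio of the counts of 2 members in the same tooth (y axis, log scale) for 5 pairs of members (x axis); points are teeth, colours stages and lines the median of 5 teeth. The 3 ratios over Bmp2 climb from stage to stage (Bmp4 to Bmp2 from 2.56 to 9.22), whereas the ratios over Fst stay near their E15 medians of 2.11 and 1.31.

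Tissue markers moved with the stages, and a whole germ mixes tissues. In bulk samples fewer cells of a type and less RNA per cell cannot be told apart. The summed CPM of 5 dental epithelium markers (Trp63, Edar, Foxi3, Cdh3 and Perp, none at 0 in any library) was 200.3 to 321 at E15, 404 to 486 at E17 and 543 to 745 at E18. All 5 were called higher at E17 than at E15. The summed CPM of 8 dental mesenchyme markers (Msx1, Pax9, Barx1, Lhx6, Lhx8, Pdgfra, Runx2 and Dcn) was 2520 to 2753, 2093 to 2199 and 1765 to 2009. From E15 to E17 4 of the 8 were called lower and 1, Dcn, higher. Of all genes tested, 7.02% were lower and 11.3% higher. Between E17 and E18 3 of the 5 epithelial markers were called higher, against 1.91% of all genes. Of the 8 mesenchymal markers 0 were called in that comparison. The summed CPM of 2 cartilage and bone markers, Spp1 and Dmp1, was 1.92 to 12.0 at E15, 3.18 to 59.7 at E17 and 7.39 to 30.4 at E18. Spp1 was called higher than at E15 both at E17 (log2 fold change 3.61 ± 0.87 SE, edgeR adjusted p = 0.011) and at E18 (3.68 ± 0.71 SE, edgeR adjusted p = 0.00329), and Dmp1 was called in neither.

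Set against the epithelial sum of the same tooth, Bmp7 had medians of 17.7%, 16.6% and 11.3% at E15, E17 and E18, and Fst 13.6%, 10.7% and 8.70%. The E15 and E17 ranges overlapped for both (14.2% to 23.8% and 14.0% to 17.7% for Bmp7). Bmp2 went from 11.6% to 5.14% and 1.91%, with separate ranges. Set against the mesenchymal sum, Bmp2 had medians of 1.16% at E15 and 1.12% at E17 with overlapping ranges, and 0.734% (0.517% to 0.895%) at E18, below all E17 teeth (0.969% to 1.14%). Over the same mesenchymal sum, Bmp7 had medians of 1.73%, 3.24% and 4.18% at E15, E17 and E18, and every E15 tooth (1.45% to 1.84%) was below every E17 tooth (3.10% to 3.64%). Fst had medians of 1.37%, 2.12% and 2.91%, again with E15 (0.989% to 1.51%) below E17 (1.94% to 2.43%). The part of the shift in tissue markers in the changes of Bmp2, Bmp7 and Fst was not tested.

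**Figure D4:**
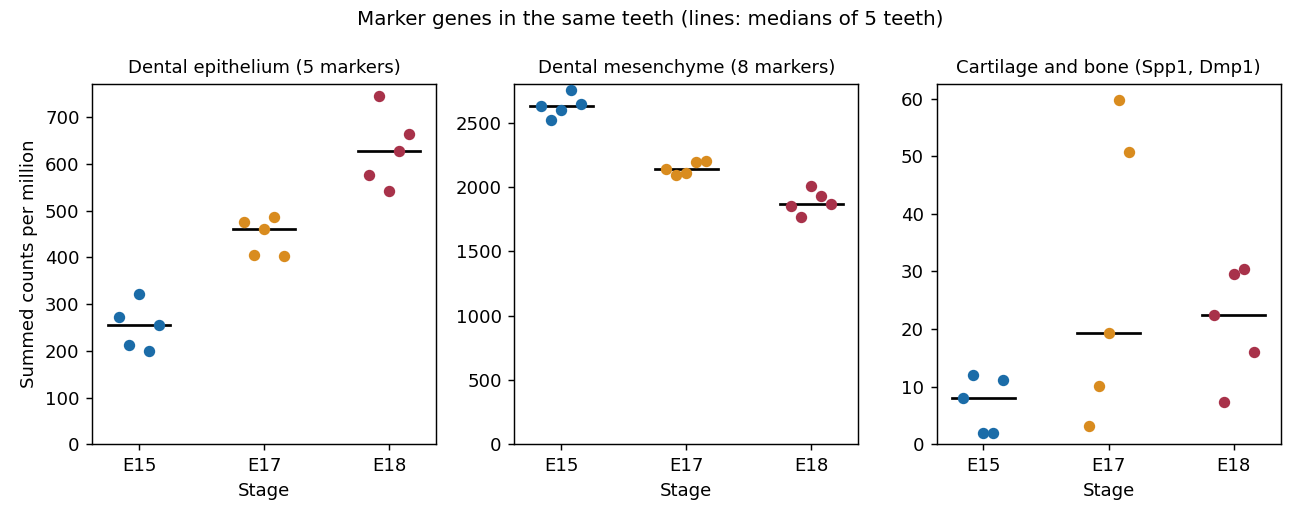
Summed CPM (y axes, linear from 0) of markers of dental epithelium, dental mesenchyme, and cartilage and bone in each tooth by stage (x axes); points are teeth and lines medians of 5 teeth. The epithelial sum climbs (medians 256, 462 and 627) and the mesenchymal sum falls (2631, 2137 and 1864), while the bone sum varies widely among E17 teeth (3.18 to 59.7).

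Among teeth of the same stage, members were compared pair by pair. After subtracting the stage mean of log2 CPM, Pearson's r lay between −0.5 and 0.5 in 22 of the 28 pairs of members, at 0.02 for Bmp4 and Fst and 0.05 for Bmp7 and Fst. The pairs described here are the highest and the lowest of the 28. Bmp6 and Nog had a Pearson r of 0.87 and a Spearman rho of 0.86 over the 15 teeth. Without the 2 teeth farthest from the median of Bmp6 (E15 replicate 4 and E17 replicate 1) r was 0.75. Bmp4 and Bmp5 had an r of −0.77 and a rho of −0.80, and an r of −0.78 without the 2 teeth farthest from the median of Bmp4. In each stage the tooth with the lowest Bmp5 (E15 replicate 3, E17 replicate 1 and E18 replicate 3) had more Bmp4 than the mean of its stage. These correlations carry no test, and the values of a pair share library and scaling.

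E17 replicates 1 and 2, the left and right tooth of the same embryo, showed this variation within one animal. Bmp6 had 208 normalized counts in the left and 383 in the right tooth, a log2 difference of 0.88 that exceeded all 9 other pairs of E17 teeth. Nog had 97.3 and 165 (0.76) and Bmp5 59.0 and 161 (1.45), whereas Bmp7 had 903 and 908 (0.01). Bmp6, Nog and Bmp5 were thus lowest of their stage in the left tooth, and Bmp4 was highest there (1607). The median absolute difference between these teeth over all genes was 0.14. No test of a single pair of teeth was made.

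The cartilage and bone markers Spp1 and Dmp1, which mark tissue next to the germ as well as later tooth tissue, differed between the same teeth. Their summed CPM was 3.18 in E17 replicate 1, the lowest of its stage, 10.1 in E17 replicate 2 and up to 59.7 in E17 replicate 4. At E15 it was 2.01 in replicate 3, where Spp1 was at 0, and 1.92 in replicate 4, against 7.97 to 12.0 in the other teeth. These 2 teeth also had the lowest Nog of E15 (102 normalized counts in each). The stage-centred r with this sum was 0.72 for Bmp6, 0.72 for Nog and 0.57 for Bmp5, and without the 2 farthest teeth 0.52, 0.49 and 0.65. In the other members the r with this sum ran from −0.44 (Bmp4) to 0.25 (Bmp2). Such values were not limited to these genes or to bone markers. Bmp3 had −0.76 with the mesenchymal sum and 0.71 with the epithelial sum, and Bmp2 had −0.66 with the sum of enamel knot markers. The part of neighbouring bone or cartilage in the values of Bmp5, Bmp6 and Nog was not tested. Markers of muscle, nerve and endothelium were not analysed here.

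**Figure D5:**
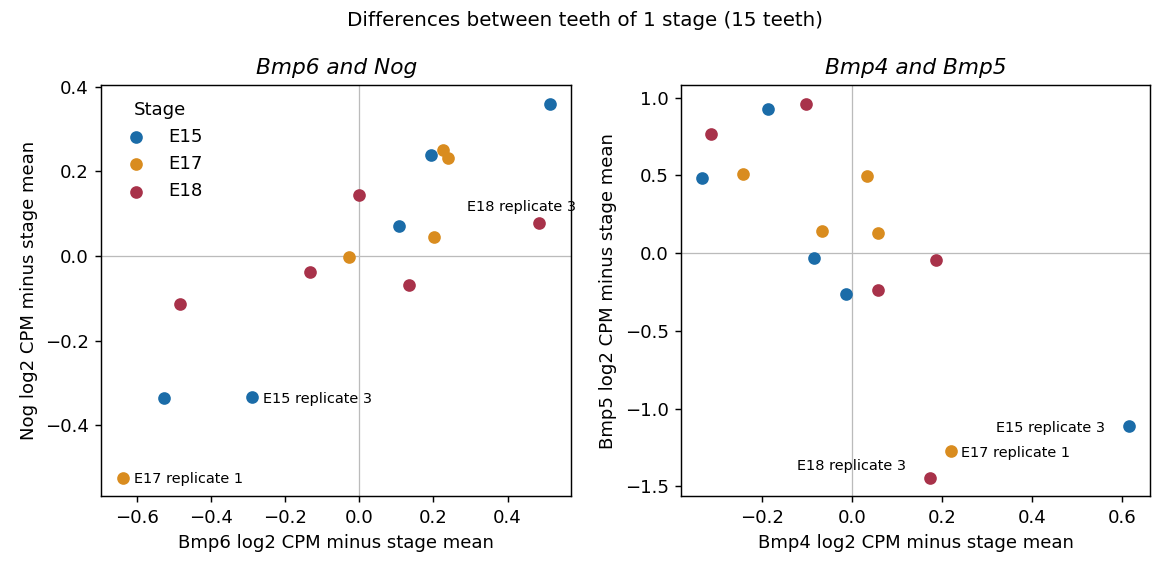
Log2 CPM minus the stage mean for Bmp6 against Nog (left) and Bmp4 against Bmp5 (right) in 15 teeth, coloured by stage. Bmp6 and Nog run together (r = 0.87) with E17 replicate 1 lowest in both, and Bmp4 and Bmp5 run in opposite directions (r = −0.77) with 3 teeth, 1 of each stage, far below in Bmp5.

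The other genes of the pathway are given list by list, and the counts refer to the listed genes that were tested. Of all genes tested, 11.3% rose and 7.02% fell from E15 to E17, and 14.2% rose and 6.73% fell from E15 to E18. From E17 to E18 1.91% rose and 0.629% fell. Among other ligands of the superfamily, 2 of 8 tested rose from E15 to E17 and 0 fell, with a median log2 fold change of 0.27 against −0.01 over all genes. Inhbb, which encodes a subunit of activin B and inhibin B, went from 12.9 ± 3.69 to 50.7 ± 8.15 normalized counts (SD, n = 5 per stage), a log2 fold change of 1.95 ± 0.27 (SE, edgeR adjusted p = 0.000261). Tgfb3, a transforming growth factor beta ligand, rose by 0.74 ± 0.09 (adjusted p = 0.000141). Inhba, which encodes the subunit of activin A, had 1441 ± 171 and 1551 ± 161 normalized counts and did not pass. At E18 against E15, 3 of 7 were higher, which were Inhbb (2.46), Tgfb1 (0.68) and Tgfb3 (0.68), and 0 were lower.

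Of other extracellular modulators 1 is given, Sostdc1. This gene, which encodes an inhibitor of BMP and Wnt signals in the tooth, rose by 1.32 ± 0.26 (SE, edgeR adjusted p = 0.00328) from E15 to E17. At E18 the value of Sostdc1 against E15 was 1.40, and it did not pass between E17 and E18.

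Of 8 receptor genes tested, 1 rose and 1 fell from E15 to E17 (median −0.09). The type I receptor gene Bmpr1a went from 2136 ± 200 to 1775 ± 91.3 normalized counts, a log2 fold change of −0.26 ± 0.07 (SE, edgeR adjusted p = 0.0222), and Tgfbr2, which binds transforming growth factor beta and not BMPs, rose by 0.39 ± 0.08 (adjusted p = 0.00509). The type II receptor gene Bmpr2 (−0.04 ± 0.06) did not pass. At E18 Bmpr1a ranged from 383 to 1875, with the lowest value in replicate 3, and was not called against E15 (−0.61 ± 0.32, adjusted p = 0.202), whereas Tgfbr2 was (0.52 ± 0.14, adjusted p = 0.0189).

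Of 5 Smad genes tested, 3 fell from E15 to E17 and 0 rose (median −0.18). These were Smad5 (−0.22 ± 0.06), which transduces BMP signals, the shared partner Smad4 (−0.26 ± 0.07) and Smad3 (−0.18 ± 0.06), which transduces activin and transforming growth factor beta signals (SE, edgeR adjusted p = 0.0205, 0.025 and 0.0415). At E18 the same 3 were lower than at E15, by −0.29, −0.32 and −0.27, and none of the 5 passed between E17 and E18.

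Genes known to respond to BMPs in the tooth did not move in one direction. Of 4 tested, 1 rose and 1 fell from E15 to E17. Cdkn1a, a cell cycle inhibitor of the enamel knot, rose by 1.49 ± 0.23 (SE, edgeR adjusted p = 0.000635), and Msx1, a mesenchymal homeobox gene, went from 4726 ± 681 to 3506 ± 440 normalized counts (−0.42 ± 0.11, adjusted p = 0.0136). Between E17 and E18 the only one of the 4 to pass was Msx2, a related homeobox gene, from 173 ± 31.9 to 462 ± 72.3 (1.41 ± 0.16, adjusted p = 0.00144). Against E15, 3 of 4 were higher at E18, namely Msx2 (1.99), Cdkn1a (2.05) and Lef1 (0.50), and Msx1 was lower (−0.56). Of 23 further genes of the study's transforming growth factor beta pathway list, 1 passed between E15 and E17 (Pik3r2, 0.32) and 1 between E17 and E18 (Jun, 1.05). Between E15 and E18 5 were higher and 1 was lower.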

How the data were processed

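RNA of 15 single molar germs (5 each at E15, E17 and E18) was sequenced by the authors. The study describes the removal of poor reads (FastQC, AfterQC, Trimmomatic) for its E15 and E17 rat libraries and does not describe the E18 libraries. The deposited table used here holds expected counts (estimated counts per gene) from Salmon 0.99.0, a version taken, as are FastQC 0.11.8, Trimmomatic 0.39 and the build Rnor_6.0, from the submitters' processing notes. These deposited values are whole numbers under mouse Ensembl identifiers, so that rounding changed none. The transcript set and use of strand are not given in the sources used here, and reads of near-identical or overlapping genes may be split. A second deposited table (STAR and HTSeq, rat identifiers, E15 and E17) was not used here, because its identifiers could not be joined to symbols.

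Of 399 pairs of symbol and identifier given by the study, 356 matched the table. Groups came from the labels, and replicate numbers follow accession order. Stages were compared with edgeR 4.0.16 (R 4.3.3, limma 3.58.1), with TMM scaling, filterByExpr, the quasi-likelihood F test and Benjamini-Hochberg adjustment over all genes (threshold 0.05), on the libraries of the stages compared. SEs were derived from the F statistic. Normalized counts used DESeq2 1.42.0 size factors, and log2 CPM a prior count of 2. Other scripts ran in Python 3.11.15 with scipy 1.17.1. Only the edgeR and DESeq2 fits were tested on simulated data, modelled on the E15 and E17 libraries. p-values measure the spread between these teeth, of which 2 at E17 came from the same embryo and were treated as independent. Library totals of 10993502 to 27571541 counts set the precision. No 2 libraries of a stage were within sampling noise of each other (chi-square per gene 6.33 to 160 over 30 pairs).

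All members were named, with genes of the pathway lists past the threshold and, per member, the 3 genes most alike. Further genes of the study's transforming growth factor beta list that passed between E15 and E18 were only counted. Some genes of the lists are not reported here. Members and lists were chosen with earlier results of these data known. Alternatives were DESeq2 size factors, DESeq2's Wald test, other count filters, 1 fit of all libraries, both teeth of the shared embryo summed, each tooth left out and an exact permutation test.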

Additional observations from a re-analysis of the deposited data

Results flagged for a closer look

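Among 24 groups of 5 teeth (8 members at 3 stages), 3 had a highest or lowest tooth far from the other 4, where chance flags about 1 in 20 groups, or 1.2 here. All 3 were at E15 and in different teeth. Bmp4 in E15 replicate 3 had 1697 normalized counts against 879 to 1100 in the other E15 teeth. Bmp3 in E15 replicate 4 had 1106 normalized counts against 1912 to 2236. Bmp7 in E15 replicate 2 had 493 normalized counts against 612 to 643.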

How the results depend on the processing

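The call of Bmp2, Bmp7 and Fst between E15 and E17, and between E15 and E18, held in all 17 alternatives for each, with log2 fold changes of −0.51 to −0.39, 0.59 to 0.68 and 0.38 to 0.51, and of −1.28 to −1.04, 0.71 to 0.88 and 0.57 to 0.70. Among these alternatives the exact permutation test has no adjustment over genes. It had to pass for Bmp2, Bmp7 and Fst, because their stages did not overlap. Genes called between E15 and E17 (2315) came to 1514 in 1 fit of all 15 libraries. Between E17 and E18 (323 genes) they came to 212 with both teeth of the shared embryo summed, 636 by DESeq2's Wald test and 141 to 713 when a tooth was left out, the ends being without E17 replicate 3 and without E18 replicate 3, and the members called to between 0 and 1. Between E15 and E18 (2656 genes, 3 members), members called were 3 to 5 when a tooth was left out. The joint removal of E15 replicate 3 and E18 replicate 3, chosen after seeing the data, gave 4136 genes and 6 members, with Nog at −0.0047. Direction turned only in members that were not called: Bmp5 from E15 to E17 (−0.13 to 0.34 when a tooth was left out), Bmp3 from E17 to E18 (−0.0043 to 0.23, lowest without E18 replicate 2) and Nog from E17 to E18 (−0.15 to 0.024). The cause of these moves was not tested. Of all alternative values of single members, 529 kept direction and side of the threshold, 6 lost a call, 9 gained one and 8 turned. No alternative varied depth, and the lowest member value was 23 counts (Bmp5 at E18). The alternative with the HTSeq table was not run. No paired analysis was possible because replicate numbers follow accession order and no label ties an embryo of one stage to an embryo of another.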

Other observations

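For each member the genes most alike in log2 CPM over the 15 teeth were sought among 350 genes. These have a symbol in the study's lists of tooth and signalling pathway genes and reach a mean normalized count of 10. Genes outside those lists were not searched. The values describe likeness, include the shift between stages and carry no test; a second r, with stage means removed, is given beside each. Bmp2 was most like Frzb, a secreted Wnt inhibitor (r = 0.92, stage-centred 0.47), and Lrp6, a Wnt co-receptor (0.89 and 0.73), while its likeness to Wnt2 (0.88) was absent within stages (−0.09). Bmp7 was most like Lfng (0.94 and 0.67), which modifies Notch receptors, Stat5b (0.93 and 0.76) and Notch1 (0.92 and 0.56). Fst was most like the Wnt ligands Wnt4 (0.94 and 0.77) and Wnt10a (0.93 and 0.63) and the laminin gene Lama3 (0.93 and 0.79).

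Bmp4 was most like Ctnna1 (0.91 and 0.83) and Cdh3 (0.85 and 0.77), which encode parts of cell junctions, and Gli1 (0.82 and 0.66), a Hedgehog target. Bmp3 was most like Aqp4 (0.80 and 0.85), Ahr (0.79 and 0.79) and Dcn (0.78 and 0.81). Nog was most like Alpl (0.88 and 0.88), the alkaline phosphatase of mineralizing tissue, Fgfr3 (0.74 and 0.77) and Dmp1 (0.72 and 0.74), a bone and dentine matrix gene. Bmp5 was most like Mme (0.81 and 0.75), Slc13a5 (0.79 and 0.77) and Nrp2 (0.78 and 0.74), and Bmp6 like Nrp2 (0.79 and 0.71), Msx1 (0.73 and 0.70) and Ihh (0.68 and 0.56).

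The 8 enamel knot markers (Shh, Fgf4, Fgf9, Fgf20, Cdkn1a, Dkk4, Slit1 and Wnt10b) had a summed CPM of 41.5 to 59.4 at E15, 106 to 135 at E17 and 146 to 210 at E18. By edgeR, 3 of the 7 tested were called higher at E17 than at E15 (Shh by 4.57, Cdkn1a by 1.49 and Slit1 by 1.17 in log2 fold change), and 5 of 8 at E18 than at E15, Fgf4 and Wnt10b being the other two. The shares of all genes called higher than at E15 were 11.3% at E17 and 14.2% at E18. Fgf9 (−0.50 from E15 to E17), Fgf20 (1.25) and Dkk4 (0.34) were called in no comparison. The part of any cell type in these changes was not tested.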
